A study of Mus musculus with 14 samples.

Results

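The HOX genes of the mouse encode homeodomain transcription factors and lie in 4 clusters, Hoxa on chromosome 6, Hoxb on chromosome 11, Hoxc on chromosome 15 and Hoxd on chromosome 2. They were followed in fetal ovaries with and without Coup-tfII, the orphan nuclear receptor whose gene symbol is Nr2f2. Members were all probe sets whose single gene symbol in the platform annotation was Hox followed by a cluster letter and a number. These were 48 of the 45101 probe sets on the array and stood for 33 genes, out of 18193 genes with a probe set of 1 symbol. Arrays came from E14.5 KO ovaries (n = 3), E14.5 control ovaries (n = 3), E16.5 KO ovaries (n = 4) and E16.5 control ovaries (n = 4), on a mixed background of C57BL/6, Swiss Webster and B6129SF1/J. The KO ovaries came from a WT1-CreERT2; COUP-TFII flox/flox model, in which Cre is driven by WT1 and works only once tamoxifen is present, so the gene can be lost only in cells where Cre was active. All dams, those of controls included, received 2 mg tamoxifen for every 10 g of body weight at E11.5 and again at E12.5. The labels do not say which alleles the controls carried, nor whether Cre was among them. The labels call the arrays of a group biological replicates without saying which embryos were pooled, so p-values measure the spread between these arrays.

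HOX genes give cells their place along the body axis. Within a cluster they are numbered from 1 to 13, and genes with low numbers are switched on earlier and closer to the head than genes with high numbers. HOX proteins bind DNA together with partner homeodomain proteins of the PBX, MEIS and PKNOX families, and Polycomb and Trithorax complexes hold the clusters silent or active. In the urogenital tract the genes at positions 9 to 13 pattern the kidney, the ducts and the external genitalia, and the developing gonad lies within their territory.

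Of the 33 genes, 22 had 1 probe set and 11 had several. Probe sets annotated to several symbols were left out, among them 3 with a HOX symbol followed by another symbol. A filter on dim probe sets, set at a geometric mean signal of 62.0 over the 14 arrays, kept 27 of the 48 HOX probe sets (21 genes). It kept 7 of 16 for Hoxa, 6 of 11 for Hoxb, 8 of 11 for Hoxc and 6 of 10 for Hoxd. At positions 1 to 3 it kept 6 of 11, at positions 4 to 8 it kept 13 of 20, and at positions 9 to 13 it kept 8 of 17. No member numbered 11, 12 or 13 passed. The members nearest the limit were Hoxc6 1427362_x_at (60.5) and Hoxb3 1427605_at (62.0) outside it, and Hoxb2 1449397_at (62.7) and Hoxb4 1460379_at (66.4) inside it. Signals of different probe sets are not on one scale of transcript number, so each is compared below only with itself.

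**Figure D1:**
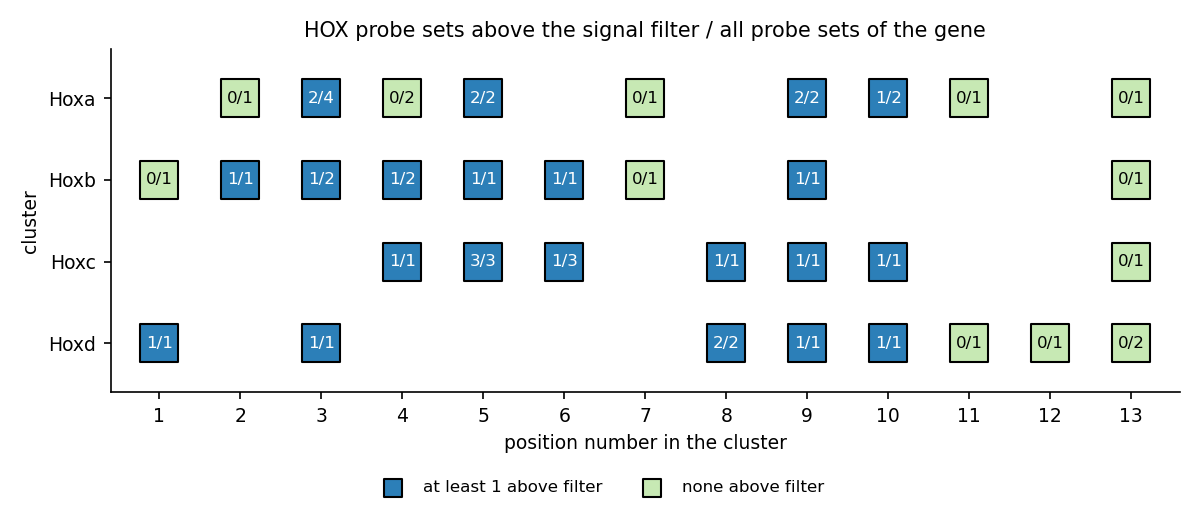
Each square is a member gene, by cluster (rows) and position number (columns); the figures inside give probe sets above the signal filter over all probe sets of the gene. Genes above the filter (blue) run from position 1 to position 10, and the genes numbered 11 to 13 (green) are all below it.

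The median signal of an array lay between 118 and 137 for E16.5 ovaries and between 90.3 and 103 for E14.5 ovaries. All 7 pre-granulosa and all 7 germ cell markers lay above the filter. Of the 6 Nr2f2 probe sets, all E16.5 KO arrays lay below all controls in 5, of which 2 passed. At E14.5, 1 showed such a gap and none passed; the E14.5 comparison therefore rests on the label for the loss of the gene. E16.5 KO replicates 1 and 4 had high bioB hybridization controls. The log2 difference between the 3' and the 5' probe sets of Gapdh, a sign of RNA quality and labelling, was 0.94 to 1.63 on E16.5 KO arrays and 1.67 to 1.82 on E16.5 control arrays, which do not overlap. At E14.5 it was -0.37 to -0.29 on KO arrays and -0.42 to -0.06 on control arrays. It thus separates the stages, which cannot be told apart from RNA quality, and at E16.5 it also separates KO from control.

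In E14.5 KO ovaries, Hoxc5 was the 1 HOX gene with a probe set that passed the test, and it was higher in KO. Probe set 1456301_at of Hoxc5, a gene in the group of positions 4 to 8, had signals of 65.2, 132 and 113 on the KO arrays. On the control arrays it had 17.9, 4.41 and 14.8. All KO arrays lay above all controls, whose signals were far under the filter. Its log2 change was 2.06 ± 0.28 (SE; limma adjusted p = 0.0322 over 27022 probe sets). The other 2 Hoxc5 probe sets did not pass. Probe set 1439885_at had 358, 423 and 425 in KO ovaries and 264, 362 and 367 in control ovaries, a log2 change of 0.28 ± 0.20 (SE; limma adjusted p = 0.774), and 1450832_at had 30.0, 104 and 107 against 41.5, 66.3 and 66.0 in controls, a change of 0.27 ± 0.34 (SE). In both, KO and control arrays overlapped.

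That is 1 of 27 HOX probe sets called, where 0.0222% of all probe sets were called (6 of 27022). The call for Hoxc5 1456301_at was lost with a pseudocount of 64 (limma adjusted p = 0.0950), with the replicate number as a block (0.0591), without control replicate 2 (0.0859), without KO replicate 2 (0.0626) and in a fit of the E14.5 arrays alone (0.586), with the log2 change between 1.12 and 2.06 in those fits.

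**Figure D2:**
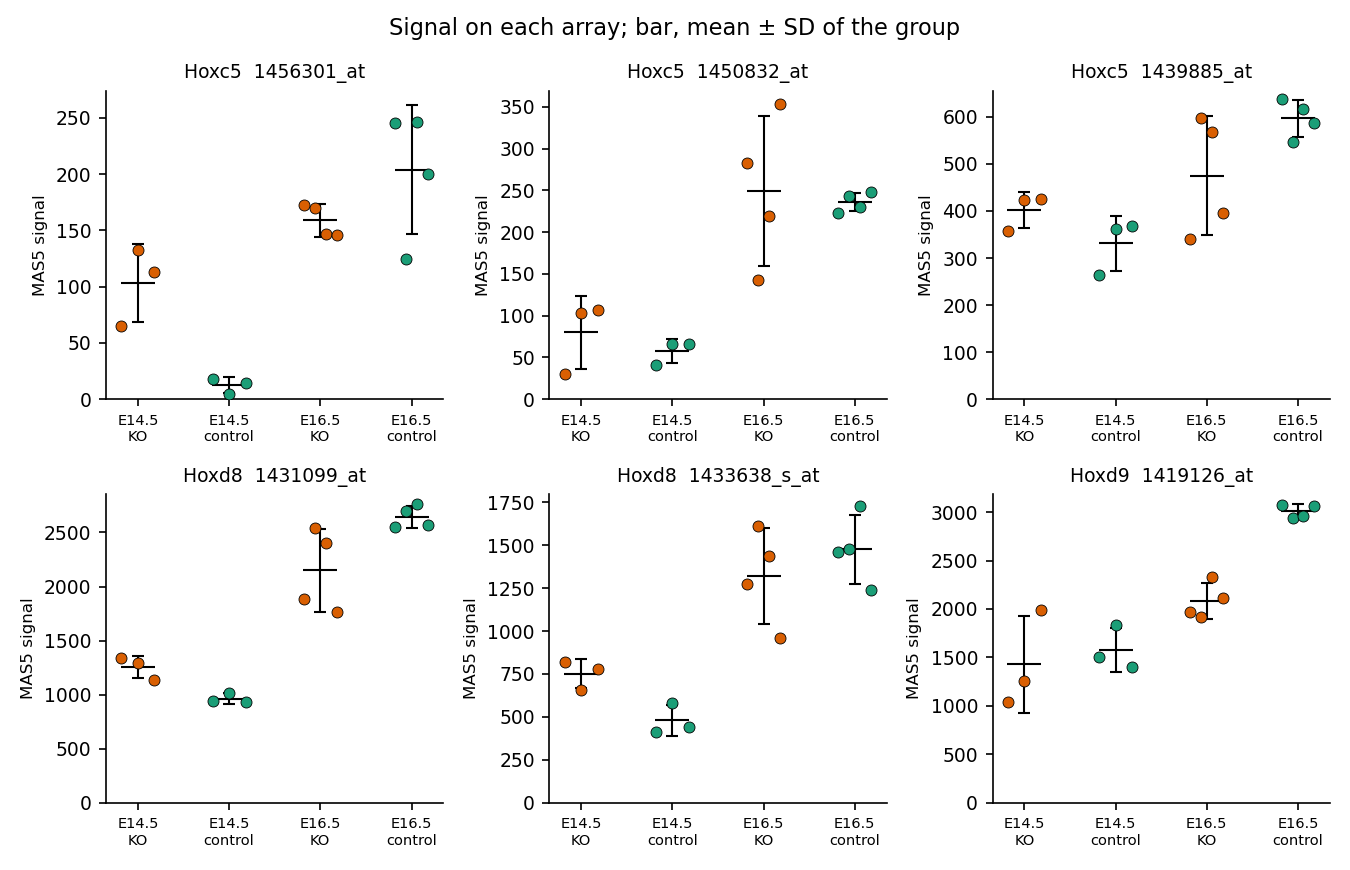
MAS5 signal (y axis, linear, each panel with its own scale from 0) on every array for the 3 Hoxc5, 2 Hoxd8 and 1 Hoxd9 probe sets, with KO groups left of control groups; points are arrays and bars are the mean ± SD. In Hoxc5 1456301_at the groups do not overlap at E14.5 and do at E16.5, Hoxd8 1431099_at lies above its controls at E14.5 and below them at E16.5, and Hoxd9 lies below its controls at E16.5, where KO arrays span 1917 to 2329.6 and controls 2944 to 3076.

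Among the Hoxd genes, both probe sets of Hoxd8 stood higher in E14.5 KO ovaries, without passing. Probe set 1431099_at had 1336, 1297 and 1137 in KO ovaries against 937, 1019 and 934 in controls, a log2 change of 0.38 ± 0.14 (SE; limma adjusted p = 0.47). Probe set 1433638_s_at had 822, 658 and 777 in KO ovaries against 414, 582 and 441 in controls, a change of 0.64 ± 0.18 (SE; limma adjusted p = 0.339). In both, the lowest KO array lay above the highest control. Hoxd9 1419126_at, the Hoxd member with the highest mean signal, had 1043, 1252 and 1990.3 in KO ovaries and 1508, 1831 and 1396 in controls. Its groups overlapped, and its log2 change was -0.19 ± 0.18 (SE). Hoxd10, next to it in the cluster, had a change of -0.22 and Hoxd3 one of 0.07. Hoxd1 1420573_at, at the other end of the cluster, was the one member with all KO arrays below all controls (130.3, 141 and 153 against 156, 177 and 166; limma adjusted p = 0.867).

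Among Hoxa and Hoxb probe sets above the filter, the largest changes at E14.5 belonged to Hoxb5 and Hoxa3. Hoxb5 1418415_at had 51.6, 106 and 36.3 in KO ovaries and 85.1, 5.93 and 7.60 in controls, where replicate 1 alone was high. Its change was 1.02 ± 0.45 (SE; limma adjusted p = 0.589). Hoxa3 1427433_s_at had 96.8, 158 and 130.0 in KO ovaries and 60.6, 64.4 and 69.1 in controls, with no overlap and a change of 0.82 ± 0.28 (SE; limma adjusted p = 0.438). The suffix s_at marks probes shared by several transcripts, and the other Hoxa3 probe set above the filter, 1452421_at, had a change of -0.16. Hoxa5 1443803_x_at, with the highest mean signal in Hoxa, read 363, 383 and 394 in KO ovaries and 272, 278 and 262 in controls, a change of 0.47 (limma adjusted p = 0.73). Hoxb3 1456229_at, which holds that place in Hoxb, read 346, 445 and 452 in KO ovaries and 264, 289.6 and 278 in controls, a change of 0.54 (limma adjusted p = 0.417). In neither did the groups overlap.

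Hoxc8 1452412_at, the Hoxc member with the highest mean signal, read 856, 946 and 959.6 in KO ovaries and 887, 757 and 758 in controls, with overlap and a change of 0.20 (limma adjusted p = 0.774). Over the HOX genes at E14.5, 18 of 27 changes were positive against 52.0% of all probe sets tested, and the median log2 change was 0.20 against 0.01 over all. Groups did not overlap for 7 of 27, where 11.4% of all probe sets showed such a gap. Of these, 6 lay above the controls (6.50% over all) and 1 below (4.86% over all). An unadjusted p under 0.05 was reached by 6 of 27, against 8.03% over all. These counts describe the members and were not tested. By position, the median log2 change was 0.17 at positions 1 to 3, 0.38 at positions 4 to 8 and -0.11 at positions 9 to 13. By cluster it was 0.33 for Hoxa, 0.34 for Hoxb, 0.13 for Hoxc and -0.06 for Hoxd. These medians moved when single arrays were left out. The range was 0.041 to 0.366 at positions 1 to 3, 0.24 to 0.58 at positions 4 to 8 and -0.28 to 0.125 at positions 9 to 13, where it was positive without KO replicate 2. By cluster it was 0.105 to 0.477 for Hoxa, 0.215 to 0.653 for Hoxb, 0.030 to 0.20 for Hoxc and -0.18 to 0.15 for Hoxd. With 1 probe set per gene the Hoxa median was -0.16. Summed signal of the 5 surface epithelium markers also differed, at 8109 to 11167 in KO ovaries and 6174 to 7339 in controls, with 0 of 5 called. Its part in these shifts was not tested.

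At E16.5, 0 of 27 HOX probe sets passed in the comparison of KO with control ovaries (limma), where 0.918% of all probe sets did (248 of 27022). An unadjusted p under 0.05 was reached by 3 of 27, against 16.1% over all. These 3 were also the ones whose groups did not overlap, against 9.98% over all: Hoxd9 and Hoxd8 lay below the controls (2 of 27, against 5.13% over all) and Hoxb4 above them (1 of 27, against 4.85%). Changes were positive for 15 of 27, against 52.7% over all. With the Gapdh 3' to 5' difference as a covariate, 10 of the 27022 probe sets were called at E16.5, and again 0 of 27 HOX; its part in the KO values at this stage was not tested. In bulk tissue, fewer cells of a type and less RNA per cell cannot be told apart.

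Hoxd9 1419126_at had 1973, 1917, 2329.6 and 2118 in E16.5 KO ovaries and 3076, 2944, 2955 and 3063 in controls. Every KO array lay under all controls. The log2 change was -0.53 ± 0.15 (SE; 95% interval -0.85 to -0.21; limma adjusted p = 0.107), and it passed in a fit of the E16.5 arrays alone, as the 1 HOX call there (limma adjusted p = 0.0221). In the 19 other alternative fits it did not pass, with a limma adjusted p of up to 0.627. Hoxd8 1431099_at read 1888, 2545, 2401 and 1761 in KO ovaries and 2550.4, 2701, 2763 and 2569 in controls, a change of -0.31 ± 0.12 (SE; limma adjusted p = 0.204). The 2 lowest of those KO arrays are replicates 1 and 4, the ones with high hybridization controls, and the change without them was -0.10. The other Hoxd8 probe set, 1433638_s_at, read 1272, 1614, 1434 and 960.3 in KO ovaries against 1459.7, 1478, 1731 and 1237 in controls. Its groups overlapped (change -0.17), and without those arrays the change was 0.05.

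Hoxd10 1418606_at read 312, 236, 516 and 247 in KO ovaries and 539.6, 550.0, 290.2 and 406 in controls, with overlap and a change of -0.45 ± 0.27 (SE). Hoxd3 had a change of -0.32 and Hoxd1 one of 0.18, so 5 of the 6 Hoxd probe sets had negative values and the cluster's median was -0.32. That median was -0.11 without KO replicates 1 and 4 and -0.13 with the Gapdh covariate. These shifts by cluster were not tested. The promoters of the neighbouring genes Hoxd8, Hoxd9 and Hoxd10 are shown because both Hoxd9 and Hoxd8 1431099_at lay below their controls at E16.5; they were chosen after these values were seen (RefSeq, GRCm38.p6). Each runs from 250 bases before the start to 50 bases after it, 5' to 3' on the plus strand, with capitals for the letters AGGTCA on either strand, the hexamer that COUP-TF proteins and other nuclear receptors bind.
Hoxd8 (chr2:74704365-74704664, plus strand): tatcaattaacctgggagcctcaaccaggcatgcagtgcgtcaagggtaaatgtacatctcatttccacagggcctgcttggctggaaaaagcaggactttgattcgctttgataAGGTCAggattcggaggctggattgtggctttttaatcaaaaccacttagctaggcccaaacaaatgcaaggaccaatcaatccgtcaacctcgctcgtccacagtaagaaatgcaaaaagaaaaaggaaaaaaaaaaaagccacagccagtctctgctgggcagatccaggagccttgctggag
Hoxd9 (chr2:74697513-74697812, plus strand): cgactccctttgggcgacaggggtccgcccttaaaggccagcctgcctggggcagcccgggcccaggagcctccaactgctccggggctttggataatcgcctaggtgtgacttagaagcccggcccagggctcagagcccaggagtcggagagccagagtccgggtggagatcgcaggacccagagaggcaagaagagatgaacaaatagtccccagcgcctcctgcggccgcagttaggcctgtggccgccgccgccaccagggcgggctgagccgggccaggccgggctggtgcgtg
Hoxd10 (chr2:74691641-74691940, plus strand): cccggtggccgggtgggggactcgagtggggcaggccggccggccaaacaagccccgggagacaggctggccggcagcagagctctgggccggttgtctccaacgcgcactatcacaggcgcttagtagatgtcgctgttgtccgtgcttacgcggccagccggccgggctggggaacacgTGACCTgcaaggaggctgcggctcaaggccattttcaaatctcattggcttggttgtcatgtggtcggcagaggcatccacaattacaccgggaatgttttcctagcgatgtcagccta
The Hoxd8 window holds AGGTCA at base 116, the Hoxd10 window holds its complement TGACCT at base 182, and the Hoxd9 window holds neither. AGGTCA on either strand stood in 7 of 24 HOX promoters (29.2%; 22 genes, 19 of them members), against 16.3% of 32851 promoters of the same length. The homeodomain core TAATTA and the PBX-HOX letters TGATTGAT, searched on both strands, were in none of these windows. Each was in 2 of 24 HOX promoters (8.33%), against 5.29% and 0.746% of all promoters. TAATTA was in windows of Hoxd11 alone, and TGATTGAT in windows of Hoxa2 and Hoxd11. HOX promoters had a median GC content of 57.7% against 52.7% over all. A match is a string of letters in the window, not a binding site.

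In the Hoxb cluster the E16.5 values were positive for 6 of its 6 probe sets and a median of 0.57. Hoxb4 1460379_at read 166, 115, 106 and 129 in KO ovaries and 74.5, 94.8, 45.2 and 59.0 in controls, with no overlap (change 0.80 ± 0.36, SE; limma adjusted p = 0.282). Hoxb5 1418415_at read 254, 218, 144 and 240.3 in KO ovaries and 92.2, 161, 122 and 117 in controls, where 1 KO array fell among the controls (change 0.72 ± 0.39, SE; limma adjusted p = 0.381). Hoxb2 1449397_at read 82.7, 35.5, 62.5 and 8.58 in KO ovaries and 5.58, 27.9, 30.9 and 23.5 in controls, a change of 0.62. Hoxb6, Hoxb3 and Hoxb9 had changes of 0.52, 0.16 and 0.01. Hoxb6 was split among the KO arrays, at 156 and 162 on replicates 1 and 4 and 45.4 and 51.7 on the others. The Hoxb median was 0.32 without KO replicate 1, 0.24 with the Gapdh covariate and 0.16 with a filter at the 60th percentile.

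In Hoxa the E16.5 median was 0.25, with Hoxa5 at 0.25 and 0.46, Hoxa3 at 0.44 and -0.10, Hoxa10 at 0.37 and Hoxa9 at -0.04 and 0.01. The Hoxa median was 0.049 without KO replicate 3, 0.074 without KO replicate 1 and -0.06 with the Gapdh covariate. In Hoxc the median was -0.04. Hoxc8 1452412_at read 699, 664, 861 and 654 in KO ovaries and 707, 694, 846 and 664 in controls, with overlap (change -0.02; 95% interval -0.28 to 0.24). Hoxc4 and Hoxc5 1439885_at both had changes of -0.36, Hoxc6 had 0.30, Hoxc9 0.13 and Hoxc10 -0.07. Hoxc5 1456301_at, called at E14.5, read 173, 169.8, 147 and 146 in E16.5 KO ovaries and 245, 124, 246 and 200.4 in controls, with overlap and a change of -0.29 (limma adjusted p = 0.592). Over the 27 probe sets the median was 0.01 against 0.02 over all probe sets tested. It was 0.17 at positions 1 to 3, 0.01 at positions 4 to 8 and -0.02 at positions 9 to 13. Without single arrays these ranged from 0.087 to 0.246, from -0.016 to 0.235 and from -0.26 to 0.15.

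**Figure D3:**
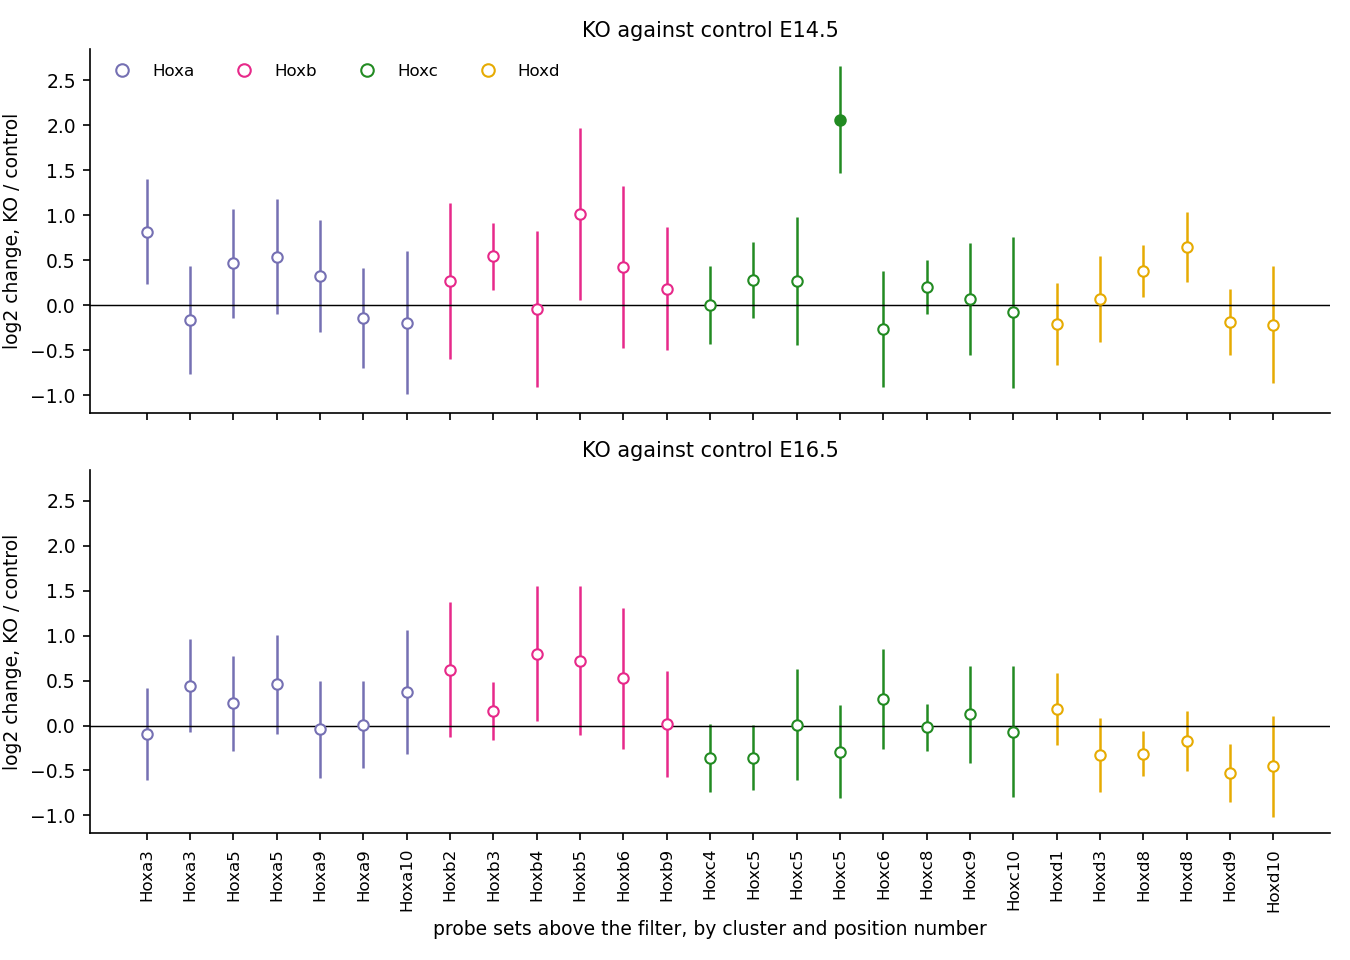
Log2 change of KO over control (y axis) with its 95% interval for the 27 HOX probe sets above the filter, ordered by cluster (colour) and position number, at E14.5 (upper) and E16.5 (lower). The filled point is the 1 that passed, Hoxc5 1456301_at at 2.06; at E16.5 the 6 Hoxb points lie above 0 and 5 of the 6 Hoxd points below it.

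Other tissue markers also differed at E16.5. Of the 5 interstitial markers measured, Pdgfra and Wnt5a fell, and their summed signal was 4852 to 7444 in KO ovaries and 10663 to 12031 in controls. That list holds Nr2f2 itself; the other 4 markers, a sum added after the data were seen, came to 2591 to 4086 in KO ovaries and 6845 to 7169 in controls. The 5 surface epithelium markers summed to 9352 to 12135 in KO ovaries and 5957 to 7250 in controls, with Krt19 called higher, and the 4 adrenal cortex markers to 3205 to 5991 and 1190.5 to 2171, with Mc2r and Hsd3b1 called higher. Sums of neural and glial markers (148 to 252 in KO ovaries and 63.7 to 97.4 in controls, with S100b called higher), of the 7 pre-granulosa markers (22015 to 23129 and 26929 to 27969.7, 0 called) and of endothelial markers (2407 to 3025 and 1942 to 2319, 0 called of 3 tested) did not overlap either. For the 6 measured markers of mesonephric and duct epithelium, a tissue in which the genes at positions 9 to 13 act, the sum was 372 to 582 in KO ovaries and 362 to 454 in controls, with 0 called of 3 tested. The part of these markers in the HOX values was not tested.

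The KO changes at the 2 stages, which share no arrays, were also set against each other. They had the same sign for 12 of 27 HOX probe sets, with a Pearson r of -0.02 across probe sets, several of which belong to 1 gene. In the test of the difference itself, 0 of 27 passed, as did 0 of 27022 over all (0%; limma); 5 of 27 had an unadjusted p under 0.05, against 8.35% over all. Hoxc5 1456301_at had a difference (the E16.5 change minus the E14.5 change) of -2.35 ± 0.38 (SE; limma adjusted p = 0.183). It passed without E14.5 KO replicate 3 (0.0335) and without E16.5 control replicate 2 (0.0257). For Hoxd8 1431099_at, where KO arrays stood above the controls at E14.5 and below them at E16.5, the difference was -0.69 ± 0.18 (SE; limma adjusted p = 0.447). For Hoxd8 1433638_s_at it was -0.82 ± 0.24 (SE; limma adjusted p = 0.492).

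Between stages, Hoxc5, Hoxb5, Hoxd8, Hoxd9 and Hoxa3 were higher at E16.5 in control ovaries, and probe sets of Hoxb2, Hoxa5 and Hoxb3 were lower. In KO ovaries 13 of 27 HOX probe sets passed between E16.5 and E14.5, against 64.2% over all. Of these, 7 were higher (34.5% over all) and 6 lower (29.6% over all), and under median centring of the arrays 6 were higher and 10 lower. In control ovaries, 12 of 27 passed, where 67.0% of all probe sets did. Of these, 9 were higher (35.9% over all) and 3 lower at E16.5 (31.1% over all). Under median centring, which moves the median of all probe sets in controls to -0.28 (0.06 as deposited), 9 were higher and 9 lower, and the 12 were among these 18. In both genotypes 9 passed. The 27 stage changes had the same sign in 23, with Pearson r = 0.80 and Spearman rho = 0.89 across probe sets (no shared arrays; no test). Markers of several cell types also moved with stage. In controls the 7 germ cell markers were all called lower at E16.5, with a sum of 12758 to 17369.9 against 55870.2 to 66394 at E14.5. The 4 red cell markers summed to 906 to 2780.3 at E16.5 and 31626.5 to 41270.3 at E14.5. Of the 3 red cell markers tested, 2 were called lower and 1 higher, so they did not all move with the sum. The pre-granulosa markers, with 4 of 7 called lower, summed to 26929 to 27969.7 at E16.5 and 38437 to 51554 at E14.5. The part of these cell type markers in the stage values was not tested.

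Hoxc5 had the highest stage change among the HOX probe sets in controls. Probe set 1456301_at had a log2 change of 0.59 in KO ovaries, where it did not pass (limma adjusted p = 0.0605). In controls it read 245, 124, 246 and 200.4 at E16.5 and 17.9, 4.41 and 14.8 at E14.5, a change of 2.95 ± 0.27 (SE; limma adjusted p = 2.92e-08). Probe set 1450832_at rose by 1.53 in KO ovaries and read 223, 243, 230.4 and 248 at E16.5 and 41.5, 66.3 and 66.0 at E14.5 in controls, a change of 1.79. Hoxb5 1418415_at had a change of 1.58 in KO ovaries and read 92.2, 161, 122 and 117 at E16.5 and 85.1, 5.93 and 7.60 at E14.5 in controls, a change of 1.87. None of these 3 probe sets overlapped between stages in controls. Every E14.5 control signal of Hoxc5 1456301_at lay under the filter limit of 62.0, as did those of Hoxb5 except replicate 1. Both passed the filter on a mean over the 14 arrays that their higher E16.5 signals raised. The Hoxd genes Hoxd8 and Hoxd9 rose with stage in both genotypes. Changes of the Hoxd8 probe sets were 0.75 and 0.78 in KO ovaries and 1.44 and 1.60 in controls, and that of Hoxd9 was 0.59 in KO ovaries and 0.93 in controls. These stage changes did not differ detectably between genotypes (limma adjusted p = 0.447, 0.492 and 0.714). In KO ovaries the Hoxd9 arrays overlapped between stages, and the Hoxd9 call there was lost under median centring of the arrays. Hoxa3 1452421_at rose by 1.61 in KO ovaries and by 1.001 in controls. The other Hoxa3 probe set, 1427433_s_at, had a change of 0.17 in KO ovaries (limma adjusted p = 0.576) and rose by 1.09 in controls. Hoxc5 1439885_at had 0.20 in KO ovaries (limma adjusted p = 0.365) and rose by 0.83 in controls. Neither Hoxa3 1427433_s_at nor Hoxc5 1439885_at had stage changes that differed detectably between genotypes (limma adjusted p = 0.58 and 0.587).

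Probe sets of Hoxb2, Hoxa5 and Hoxb3 fell with stage. Hoxb2 1449397_at had a change of -1.70 in KO ovaries and read 5.58, 27.9, 30.9 and 23.5 at E16.5 and 148, 120.3 and 138 at E14.5 in controls, a change of -2.05 ± 0.39 (SE; limma adjusted p = 0.000146). This probe set lies just inside the filter (62.7 against a limit of 62.0), and all its E16.5 control signals were under that limit. With a pseudocount of 1 it was not among the calls in either genotype. In controls, Hoxa5 1443803_x_at read 103, 223, 134 and 133 at E16.5 and 272, 278 and 262 at E14.5, a change of -0.85. Hoxb3 1456229_at read 156, 207, 216 and 171 at E16.5 and 264, 289.6 and 278 at E14.5 in controls, a change of -0.54. In all 3 the stages did not overlap. The other Hoxa5 probe set above the filter, 1448926_at, passed in neither genotype, and its stages overlapped. It had -0.53 in KO ovaries (limma adjusted p = 0.111) and -0.45 in controls (limma adjusted p = 0.17). Hoxb4, which lies between Hoxb3 and Hoxb5, rose in KO ovaries (1.35; limma adjusted p = 0.00534) and had 0.51 in controls (limma adjusted p = 0.253). The stage changes of Hoxb4 did not differ detectably between genotypes (limma adjusted p = 0.692). The Hoxb3 probe set below the filter, 1427605_at, had 0.02 in KO ovaries and 0.59 in controls in a fit with no filter, and passed in neither. Hoxb9 (-0.63; limma adjusted p = 0.0731) and Hoxa9 1455626_at (-0.57; limma adjusted p = 0.0505) had more negative changes in controls than Hoxb3 1456229_at but did not pass. Of the 8 probe sets at positions 9 to 13, Hoxd9 was the 1 called in controls. The Gapdh 3' to 5' difference, whose values do not overlap between stages, was also added to the model. Then 1 of 27 HOX probe sets (Hoxa3 1452421_at) was called in each genotype. Among all 27022 probe sets, 3344 were called in KO ovaries and 1973 in controls in that model.

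**Figure D4:**
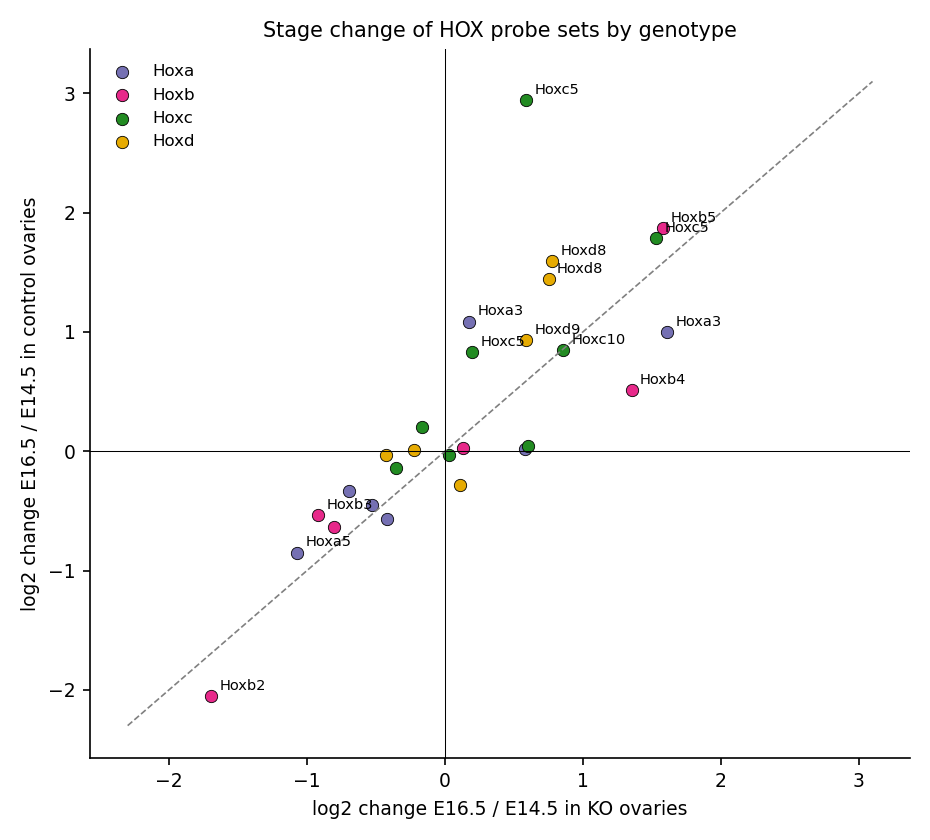
Log2 change of E16.5 over E14.5 for the 27 HOX probe sets in KO ovaries (x axis) and control ovaries (y axis), coloured by cluster; names mark the probe sets with the largest changes, and the dashed line is equality. Points run along the line from Hoxb2 at the lower left to Hoxb5 at the upper right, and Hoxc5 1456301_at stands apart at 0.59 in KO and 2.95 in controls.

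Within groups, the genes at positions 9 to 13 varied together from array to array, a pattern noticed in the data and given as a description without a test. After each group's mean was taken away, the mean Pearson r over 14 arrays was 0.54 between pairs of these 8 probe sets, and 28 of 28 pairs were positive. It was 0.14 among the 19 probe sets at positions 1 to 8, 0.04 between both sets and 0.00 over all probe sets; the arrays share one scaling. E16.5 KO replicate 3 was the highest of the 4 KO arrays in 8 of 8, as it was for 21.8% of all probe sets. Its signals were 251.9 for Hoxa10 (56.5 to 146 on the other KO arrays), 318 for Hoxc10 (107.5 to 169), 258 for Hoxc9 (82.98 to 199.5), 142 for Hoxb9 (46.3 to 67.5) and 516 for Hoxd10 (236 to 312). E16.5 KO replicate 2 was the lowest in 6 of 8. Replicate 3 also had the highest interstitial sum of the KO arrays (7444 against 4852 to 5779; without Nr2f2, 4086 against 2591 to 3379) and the highest Nr2f2 1416160_at signal (523 against 226 to 334), while its duct epithelium sum (412) lay inside their range. The part of these in the HOX values was not tested.

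**Figure D5:**
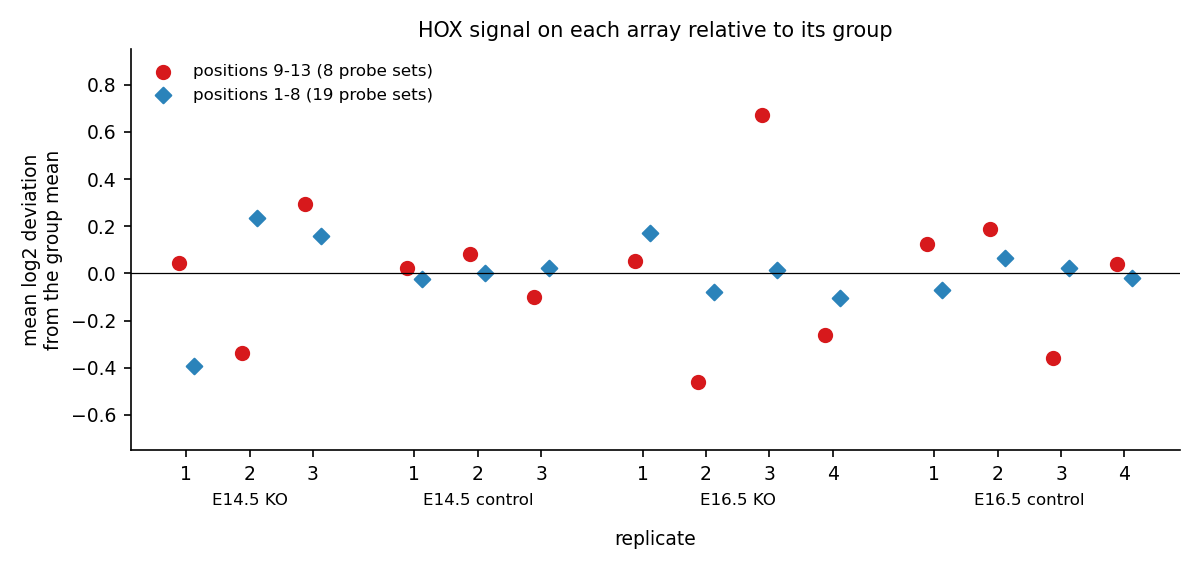
Mean log2 deviation from the group mean (y axis) on each array for the 8 HOX probe sets at positions 9 to 13 (circles) and the 19 at positions 1 to 8 (diamonds), with KO groups left of control groups. E16.5 KO replicate 3 stands at 0.67 for positions 9 to 13 and at 0.015 for positions 1 to 8.

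The 21 HOX probe sets below the filter stand for Hoxa2, Hoxa4, Hoxa7, Hoxa11, Hoxa13, Hoxb1, Hoxb7, Hoxb13, Hoxc13, Hoxd11, Hoxd12 and Hoxd13, and for second probe sets of Hoxa3, Hoxa10, Hoxb3, Hoxb4 and Hoxc6. In a fit with no filter (45037 probe sets), 0 of 21 passed in either KO comparison (limma), where 0.0333% of all probe sets did at E14.5 and 0.473% at E16.5. An unadjusted p under 0.05 was reached by 3 of 21 at E14.5, against 8.22% of all probe sets, and by 2 of 21 at E16.5, against 12.2%. Hoxb3 1427605_at, chosen after its values were seen, had all KO arrays above all controls at both stages. It read 83.3, 94.8 and 81.0 in KO ovaries and 57.1, 11.2 and 35.4 in controls at E14.5 (change 1.13; limma adjusted p = 0.276). At E16.5 it read 76.4, 87.7, 88.5 and 100.3 in KO ovaries and 69.1, 52.3, 36.0 and 64.8 in controls (change 0.56; limma adjusted p = 0.414). With stage in controls, and in the same fit, 5 of 21 passed, where 23653 of 45037 probe sets did over all. Hoxa4 (1.50 and 1.23 for its probe sets) and Hoxa13 (0.97) rose, and Hoxc6 1427361_at and 1427362_x_at fell by 1.91 and by 1.72. In KO ovaries Hoxa13 had 0.57 and did not pass (limma adjusted p = 0.0927). The Hoxa13 stage changes did not differ detectably between genotypes (limma adjusted p = 0.849). The Hoxc6 probe set above the filter, 1427454_at, had a stage change of 0.05, so the 3 probe sets of this gene disagreed. In KO ovaries 5 of 21 passed with stage, where 22979 of 45037 probe sets did over all. Hoxd11 was among them and rose there (2.08), with 160.6, 46.4, 56.9 and 246 at E16.5 and 43.1, 4.41 and 3.05 at E14.5. In controls Hoxd11 had 1.10 and did not pass (limma adjusted p = 0.0715). Its stage changes did not differ detectably between genotypes (limma adjusted p = 0.775). Signals of Hoxb1, Hoxb7, Hoxb13, Hoxc13, Hoxd12 and Hoxd13 were under the limit on every array.

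Genes that work with the clusters or lie beside them were called in neither KO comparison: 0 of 7 tested TALE cofactors, 0 of 16 Polycomb genes, 0 of 11 Trithorax genes and activators, 0 of 4 inducers, 0 of 11 flanking genes, 0 of 1 noncoding RNA and 0 of 5 described HOX targets. Median E16.5 changes of these lists lay between -0.41 (the noncoding RNA Hoxd3os1 alone) and 0.18 (inducers). Meis2, a partner of HOX proteins, had 735 ± 167 in E16.5 KO ovaries and 448 ± 128 in controls (SD, n = 4 each), a change of 0.71 ± 0.21 (SE; limma adjusted p = 0.118). Pknox2, of the same class, had 836 ± 125 and 1220 ± 34.0, with all KO arrays below all controls (change -0.55; limma adjusted p = 0.101). Cbx7, a Polycomb subunit that reads H3K27me3, had a change of 0.51, and Suz12, a core subunit of the complex that writes it, one of -0.42. Kmt2a, the Trithorax-type methyltransferase of HOX loci, had 0.35 and its partner Men1 0.44. The retinoic acid receptor gene Rarg had 0.72 (limma adjusted p = 0.171) and Acvr2b, a receptor for GDF11, had 0.27. Among flanking genes Skap2 had -0.25 and Calcoco1 0.20, and among described targets Epha7 had -0.51 and Emx2, a gene needed for the urogenital tract, -0.32. Hoxb5os, antisense to Hoxb5 and below the filter, had 66.0 ± 15.3 in E16.5 KO ovaries and 16.0 ± 15.1 in controls (SD, n = 4 each; not tested). With stage in controls, 7 of 7 TALE cofactors passed, where 67.0% of all probe sets did. Chosen after their values were seen, Meis3, Pknox1 and Pknox2 rose by 1.50, 1.48 and 1.16 on the log2 scale, and Pbx3, Meis2, Meis1 and Pbx2 fell by 2.63, 1.65, 1.09 and 0.69.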

How the data were processed

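For each of 14 arrays, the authors deposited 1 linear intensity per probe set, computed by MAS5. The submitters' processing notes name Expression Console as the software, without a version. The mean of every array without the lowest and highest 2% was 500, so arrays had been scaled to a common mean, which hides any global difference. Detection calls and scanner files were not used here. Probe sets were named through the platform annotation, and all 48 member symbols matched RefSeq by gene ID.

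Signals were taken as log2(signal + 16), a scale that understates changes of dim probe sets, with no further normalization. Probe sets other than controls with a mean above the 40th percentile (27022 of 45037) were fitted as 4 groups over 14 arrays in limma (version 3.58.1, R 4.3.3), by lmFit and by eBayes with an intensity trend; tables were read with version 1.17.8 of the data.table package. Tests were two-sided, with Benjamini-Hochberg adjustment over all probe sets tested and a threshold of 0.05. KO was compared with control within each stage, the later stage with the earlier within each genotype, and the KO change at E16.5 with that at E14.5. Steps were tested on simulated data. The number of arrays limits the precision. Figures used matplotlib 3.10.9 in Python 3.11.15.

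The members, lists and tests were chosen with earlier results of these data known. Each gene is named at least once. Array values are given for members past the threshold in a KO comparison or the difference, the 4 largest changes in each KO comparison, the member with the highest mean signal in each cluster, and the 3 highest and 3 lowest stage changes past the threshold in controls; up to 2 genes a list are named where none passed. Members outside this rule are given as changes or ranges. Hoxd10, Hoxb6 and those whose groups did not overlap are given with array values and were chosen after their values were seen. The labels do not say that a replicate number marks a shared litter, so it was not used as a block. Correlations of deviations from group means between same-numbered KO and control arrays were -0.02 to 0.38 at E16.5, highest for replicate 4. At E14.5 they were -0.04 to 0.06. Between E16.5 KO and control arrays of different numbers they ran from -0.27 to 0.23.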

Additional observations from a re-analysis of the deposited data

Results flagged for a closer look

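Of 54 groups of 4 arrays examined (27 HOX probe sets above the filter in E16.5 KO and E16.5 control ovaries), 3 had 1 array far from the other 3. Hoxa3 1427433_s_at read 79.5 on E16.5 KO replicate 4 and 171 to 178 on the other KO arrays. Hoxc6 1427454_at read 278 on the same array and 125 to 141 on the others. Hoxb6 1451660_a_at read 83.6 on E16.5 control replicate 4 and 50.1 to 51.9 on the others. Chance marks about 1 group in 20. E16.5 KO replicate 4 is also an array with high hybridization controls.

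Hoxd8 1431099_at had all KO arrays above all controls at E14.5 and all below at E16.5. The difference of the changes was -0.69 on the log2 scale (limma adjusted p = 0.447), so it did not pass.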

How the results depend on the processing

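At E14.5, 1 HOX call was made for KO against control (Hoxc5 1456301_at). The count became 0 with a pseudocount of 64, the replicate block and the arrays of that stage alone. It ranged from 0 to 1 when single arrays were left out. With a filter at the 60th percentile or 1 probe set per gene it was also 0. Neither of those fits held Hoxc5 1456301_at, so its call was not retested there. At E16.5 the count of 0 became 1 (Hoxd9) with the arrays of that stage alone. The count for the difference ranged from 0 to 1 without single arrays. Between stages, the 60th percentile filter left 10 HOX probe sets, of which 6 were called in KO ovaries and 7 in controls. Among all 18015 probe sets tested there, 12326 were called in KO ovaries and 12848 in controls. With the Gapdh covariate, 1 of 27 HOX probe sets was called in each genotype. Among all 27022 probe sets, 3344 were called in KO ovaries and 1973 in controls. The replicate block changed no other call; it could not be fitted between stages.

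Without single arrays, the E14.5 medians ranged from 0.105 to 0.477 for Hoxa and from 0.215 to 0.653 for Hoxb, and the E16.5 medians from -0.183 to 0.073 for Hoxc and from -0.016 to 0.235 for positions 4 to 8. The Hoxa median at E14.5 was -0.155 with 1 probe set per gene. With the 60th percentile filter, positions 1 to 3 had 0.54 at E14.5, and at E16.5 Hoxb had 0.16, Hoxc -0.36 and positions 4 to 8 -0.24. Positions 4 to 8 at E16.5 had 0.16 with no filter and 0.247 with 1 probe set per gene. Sign changes were found for 3 named members. Hoxd9 at E14.5 ranged from -0.45 to 0.010 without single arrays, positive without KO replicate 1. Hoxd8 1433638_s_at at E16.5 was 0.053 without KO replicates 1 and 4. Hoxa5 1443803_x_at with stage in controls was 0.82 with the Gapdh covariate. The cause was not tested; stricter filters and left-out arrays leave fewer probe sets or samples.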
